A study of Mus musculus with 8 samples.

Results

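The insulin-like growth factor system was followed across the hippocampus of Tg6799 mice and their littermates, as 10 genes of the 18193 that the arrays could name. The members were the ligands Igf1 and Igf2, the receptors Igf1r and Igf2r, and the binding proteins Igfbp2, Igfbp3, Igfbp4, Igfbp5, Igfbp6 and Igfbp7. They were read by 28 of the 45037 probe sets that are not controls, counting every probe set annotated to a member symbol alone. A further probe set that names Igf2r together with its antisense gene Airn was left out. The probe set that stands for a gene was chosen by its mean over the 8 arrays, the highest being taken, and this mean is the only measured value that the rule used. The family was proposed with earlier results of these arrays known, among them the change of Igfbp2, so that change is repeated here as a base for the other members and not as independent evidence.

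RNA of the whole hippocampus was hybridised to 8 single-channel Affymetrix arrays, 2 in each of 4 groups of female mice. The groups were transgenic mice at 4 months (MT4m), littermates at 4 months (LM4m), transgenic mice at 8 months (MT8m) and littermates at 8 months (LM8m). Tg6799 mice carry human transgenes with familial Alzheimer mutations under Thy1 promoter sequence, which is active mainly in neurons; no treatment is named for either genotype. Whether the pair of arrays in a group stands for different mice or for pooled RNA is not given in the labels, so each p-value reflects only how these samples vary, and part of that may be technical. Values are log2 expression values normalised by RMA, and a difference of 1 is a doubling. They ran from 0.979 to 12.8 over all probe sets. Probe set means had a median of 2.47, and a probe set below it is called dim here. The scale differs from probe set to probe set, so levels are compared between arrays and never between genes.

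Insulin-like growth factors are secreted peptides related to insulin. Both ligands signal through the tyrosine kinase Igf1r, whereas Igf2r binds Igf2 and carries it to lysosomes without a kinase of its own. The binding proteins hold the ligands in the extracellular fluid, and they either keep them from the receptor or carry them to it. In the adult brain, Igf2 and Igfbp2 are known as products of the choroid plexus and the leptomeninges, which border the hippocampus, while Igf1 is made by some neurons and by microglia.

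Before the members are described, the arrays need a short account. The arrays correlated with each other at 0.985 to 0.993, their medians lay between 2.44 and 2.51, and 10 of 10 hippocampal neuron markers were above the median of all probe sets. Thy1, whose promoter sequence drives the transgenes, read 11.7 and 11.8 in MT4m, 9.96 and 9.76 in LM4m, 9.90 and 11.8 in MT8m, and 9.92 and 9.53 in LM8m. With 9.90, the library labelled MT8m replicate 1 goes against its label, and the main differences of the members are given with and without it. Without it MT8m holds 1 array, which the fit assumes to vary like the other groups. Cst7, a gene of activated microglia, read 1.75 in that library and 8.03 in MT8m replicate 2. Markers of the choroid plexus moved with genotype. Of 18 measured, 12 fell in MT averaged over ages at an adjusted p under 0.05, against 0.06% of all probe sets, and none rose. Their median difference was -1.93, or -2.01 without the library labelled MT8m replicate 1. Their summed linear level was 1764 to 2154 in the MT arrays, against 6147 to 8768 in the LM arrays. Ttr, the marker that defines this epithelium, read 10.7 to 11.0 in MT and 12.4 to 12.8 in LM, the library labelled MT8m replicate 1 being among the low ones with 10.7. Of 16 meningeal markers, 0 passed and all 16 were negative, with a median difference of -0.56. At an unadjusted p under 0.05, 4 of them passed, against 5.76% of all probe sets. With the library labelled MT8m replicate 1 left out, 15 of them were negative and the median difference was -0.51. Their summed level was 294 to 463 in MT and 285 to 891 in LM. Fewer cells of a type and less RNA per cell cannot be told apart in whole tissue.

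Igfbp2 was the only member whose expression changed with genotype by the test across all probe sets, and Igf2 differed by -1.94 without passing it. On the plot of the members by array, the 4 MT arrays lay below the 4 LM arrays for Igf2, Igfbp2 and Igfbp4, and they lay above for none. The 4 MT arrays were all below the 4 LM arrays in 1.81% of all probe sets and all above in 1.46%. Averaged over ages, 1 of the 10 members passed at an adjusted p under 0.05 and it was lower, while 0.06% of all probe sets were lower by the same rule. At an unadjusted p under 0.05, 4 of the 10 members passed, against 5.76% of all probe sets. The median difference was -0.12 over the 10 members and -0.01 over all named genes, and 4 members were positive and 6 negative. Leaving out the library labelled MT8m replicate 1, the median over the 10 members was -0.18. Directions here go by the deposited labels and oppose the study's own gene tables, in which MT and LM are swapped for these arrays.

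**Figure D1:**
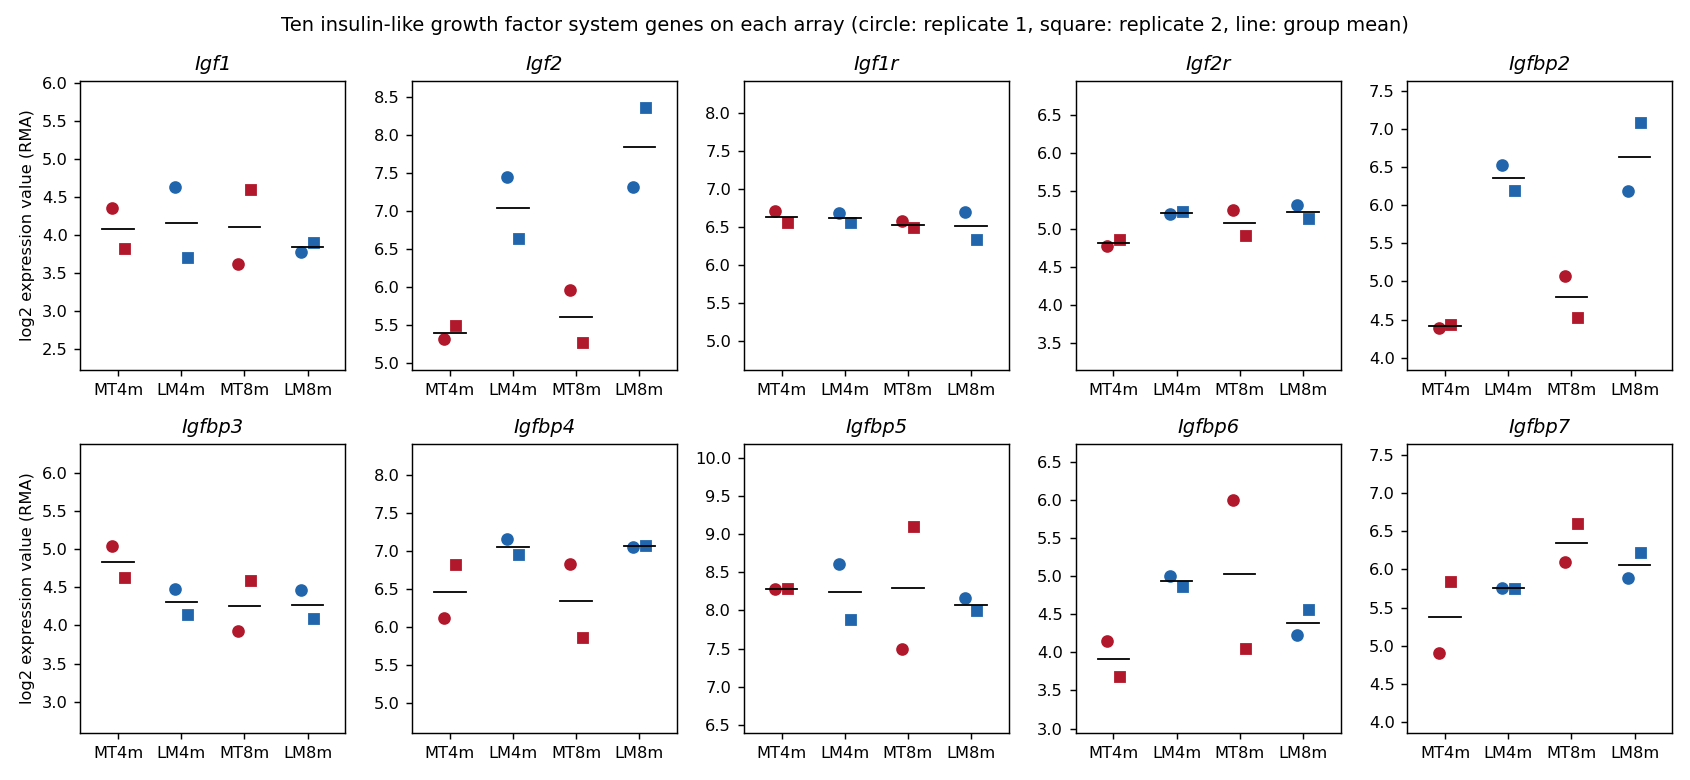
Log2 expression value (vertical axis) of the probe set that stands for each of the 10 genes, on each array of MT4m, LM4m, MT8m and LM8m (horizontal axis); circles are replicate 1, squares replicate 2, lines group means, red MT and blue LM, and every panel spans the same height. The MT points of Igf2, at 5.26 to 5.96, and of Igfbp2, at 4.39 to 5.07, lie below all LM points, which reach 8.36 and 7.08.

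Because Igfbp2, Igf2 and Igfbp4 were the members whose genotypes separated, the 250 bases before a RefSeq start site of each are shown, in the GRCm38.p6 build and with motifs in capitals. The motifs searched on both strands were the GC box GGGCGG, the TATA box TATAAA, the CCAAT box CCAAT, the E-box CACGTG and TAATCC, the letters bound by Otx-type homeodomain factors. GGGCGG stood in 32.7% of 32851 promoter windows of the same length, TATAAA in 12.4%, CCAAT in 33.8%, CACGTG in 6.02% and TAATCC in 6.25%. The Igfbp2 window, chr1:72824230-72824479 on the plus strand, held 3 GC boxes and 1 E-box. The Igf2 window, chr7:142657497-142657746 on the minus strand, is the fourth of 4 start sites and held 2 GC boxes and 1 CCAAT box, read on the opposite strand as ATTGG. The Igfbp4 window, chr11:99040994-99041243 on the plus strand, held 1 TATA box.
Igfbp2: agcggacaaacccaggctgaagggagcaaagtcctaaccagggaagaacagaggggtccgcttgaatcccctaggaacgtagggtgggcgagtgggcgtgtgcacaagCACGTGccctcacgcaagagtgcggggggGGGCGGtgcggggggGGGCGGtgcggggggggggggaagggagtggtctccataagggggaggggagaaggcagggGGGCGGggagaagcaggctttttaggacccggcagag
Igf2: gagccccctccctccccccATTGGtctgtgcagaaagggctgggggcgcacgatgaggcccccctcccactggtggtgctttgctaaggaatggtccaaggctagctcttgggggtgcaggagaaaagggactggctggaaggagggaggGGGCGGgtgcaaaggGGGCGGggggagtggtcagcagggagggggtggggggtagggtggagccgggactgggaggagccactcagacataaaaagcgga
Igfbp4: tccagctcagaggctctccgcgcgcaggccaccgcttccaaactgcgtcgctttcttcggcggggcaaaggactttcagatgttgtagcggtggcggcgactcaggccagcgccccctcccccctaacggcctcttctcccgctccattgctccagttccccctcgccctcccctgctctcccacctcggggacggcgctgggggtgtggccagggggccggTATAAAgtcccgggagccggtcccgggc
GC content was 67.2% in the Igfbp2 window, 66% in the Igf2 window and 69.2% in the Igfbp4 window. For Igf2 and Igfbp2, which have more than 1 start site, the window shown is the one with the most matches. The other start sites of Igf2 held 1 GC box at most, and the second start site of Igfbp2 held none of these motifs. TAATCC was found in none of the 14 windows of the 10 members. A match is a description of the letters and says nothing of binding.

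Igf2, the ligand that Igf2r clears, lies at chr7:142650768-142666816. It read 5.31 and 5.49 in MT4m, against 7.45 and 6.64 in LM4m, and 5.96 and 5.26 in MT8m, against 7.32 and 8.36 in LM8m. All 4 MT arrays were below all 4 LM arrays, and the library labelled MT8m replicate 1 was the highest of the MT arrays. The group means were 5.40 ± 0.12 in MT4m and 7.05 ± 0.58 in LM4m, and 5.61 ± 0.49 in MT8m and 7.84 ± 0.73 in LM8m (SD, n = 2 each). Averaged over ages the difference, MT minus LM, was -1.94 ± 0.27 (SE), a level 3.83-fold lower in MT with a 95% interval of -2.56 to -1.32 on the log2 scale. Its adjusted p in limma was 0.0892, so Igf2 did not pass. Igf2 passed without the library labelled MT8m replicate 1, at -2.11 ± 0.29 with an adjusted p of 0.0453. The second Igf2 probe set was dim, but its MT arrays, at 1.41 to 1.67, were also all below its LM arrays, at 1.84 to 2.04.

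Igf2 was lower in both MT arrays than in both LM arrays at each age. At 4 months the difference was -1.65 ± 0.38 with an adjusted p of 0.858, and at 8 months it was -2.23 ± 0.38 with an adjusted p of 0.34. The test of the difference between ages gave -0.59 with a 95% interval of -1.82 to 0.65. Leaving out the library labelled MT8m replicate 1 brought the difference at 8 months to -2.58 ± 0.45, with an adjusted p of 0.122, and that between ages to -0.93 ± 0.58. In the order of group means, MT4m came lowest, then MT8m, LM4m and LM8m. The arrays of MT4m and MT8m overlapped, as did those of LM4m and LM8m, and only the step between the genotypes separated neighbouring groups.

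Igf1, the other ligand and a survival factor for neurons, read 4.36 and 3.81 in MT4m, against 4.63 and 3.70 in LM4m, and 3.62 and 4.60 in MT8m, against 3.78 and 3.90 in LM8m. The genotypes overlapped at both ages, and the averaged difference was 0.09 ± 0.26 with a 95% interval of -0.51 to 0.70. It was 0.34 ± 0.24, with an adjusted p of 0.773, once the library labelled MT8m replicate 1 was left out. Its probe set 1452014_a_at behaved differently from the one that stands for the gene. This probe set read 3.35 and 2.53 in MT4m, against 2.17 and 2.18 in LM4m, and 1.87 and 4.05 in MT8m, against 2.45 and 2.17 in LM8m. Its mean of 2.60 was only just above the median of 2.47. All 4 LM arrays and the library labelled MT8m replicate 1 were below that median. The 3 MT arrays other than the library labelled MT8m replicate 1 were above all 4 LM arrays, and that library was the lowest of the 8. The averaged difference of 1452014_a_at was 0.71 ± 0.41 with all arrays and 1.26 ± 0.20 without that library, with adjusted p-values of 0.858 and 0.0808. Probe set 1434413_at gave 0.05 ± 0.24 with all arrays and 0.35 ± 0.12 without that library, and 1419519_at was dim. The correlation with the probe set that stands for Igf1 was 0.79 for 1434413_at, 0.64 for 1452014_a_at and 0.76 for 1419519_at over the 8 arrays.

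Microglial markers were, like 1452014_a_at, above all LM arrays in the MT arrays other than the library labelled MT8m replicate 1. In MT4m replicate 2 that probe set was only just above, at 2.53 against 2.45 in LM8m replicate 1. There it was also below its own 8-array mean of 2.60. The mean deviation of the markers from the 8-array mean was 1.07 and 0.61 in MT4m, against -0.70 and -0.86 in LM4m. It was -0.72 and 1.94 in MT8m, against -0.82 and -0.51 in LM8m. None of the 17 measured passed averaged over ages, although all 17 were positive, with a median difference of 1.37. At an unadjusted p under 0.05, 14 of them passed, against 5.76% of all probe sets. Once the library labelled MT8m replicate 1 was left out, all 17 were again positive and the median difference was 2.04. Their summed linear level was 1149 to 6270 in MT8m, the lower value being that of the library labelled MT8m replicate 1, and 1167 to 1315 in LM8m. Their part in the Igf1 values was not tested.

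**Figure D2:**
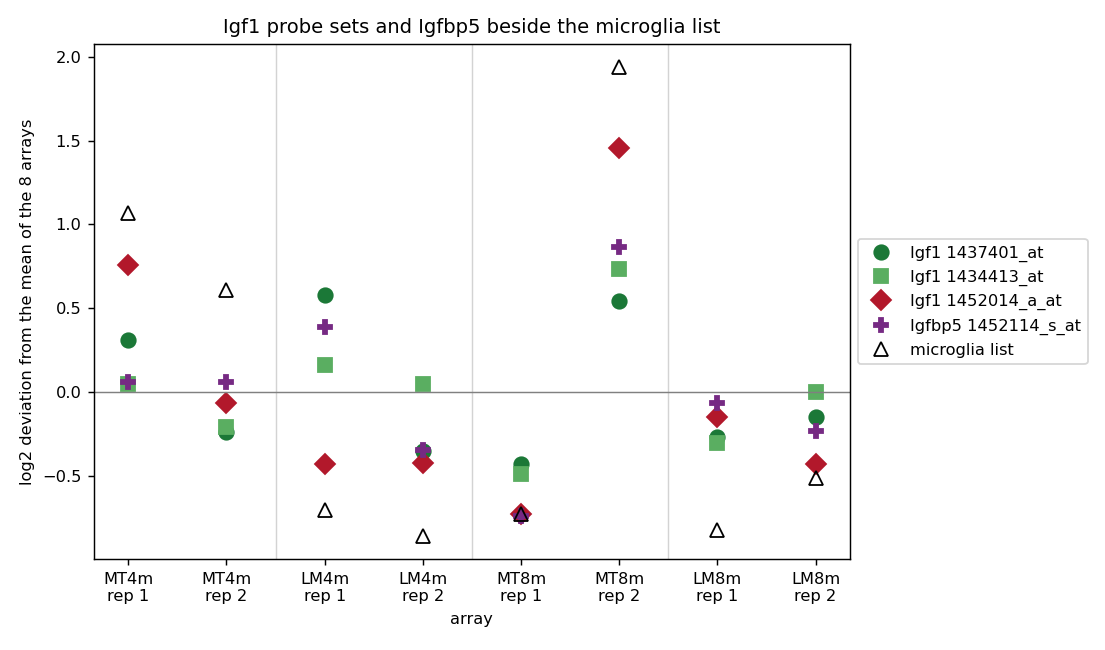
Log2 deviation from the mean of the 8 arrays (vertical axis) of 3 Igf1 probe sets, of Igfbp5 and of the mean over 17 microglial markers, on each array (horizontal axis); filled symbols are probe sets and open triangles the marker list. In MT8m replicate 2 the list stands at 1.94 and 1452014_a_at at 1.45, and in MT8m replicate 1 they stand at -0.72 and -0.73.

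Igf1r, the signalling receptor of both ligands, kept within a narrow range. It read 6.71 and 6.55 in MT4m, against 6.68 and 6.56 in LM4m, and 6.58 and 6.48 in MT8m, against 6.69 and 6.32 in LM8m. The groups overlapped throughout, and the averaged difference was 0.02 ± 0.11 with a 95% interval of -0.23 to 0.27, or -0.01 ± 0.12 without the library labelled MT8m replicate 1. The 4 other Igf1r probe sets differed by -0.02 to 0.10. Igf2r, the clearance receptor of Igf2, read 4.78 and 4.86 in MT4m, against 5.20 and 5.23 in LM4m, and 5.25 and 4.91 in MT8m, against 5.31 and 5.13 in LM8m. The genotypes were apart at 4 months and overlapped at 8 months. At 8 months MT8m replicate 2 was below both LM8m arrays, and the library labelled MT8m replicate 1 lay between them. Averaged over ages the difference was -0.27 ± 0.10 with a 95% interval of -0.51 to -0.03 and an adjusted p of 0.853. Without the library labelled MT8m replicate 1 it was -0.35 ± 0.10 with an adjusted p of 0.394. The second Igf2r probe set differed by 0.01 ± 0.13.

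Igfbp2, the binding protein that prefers Igf2, lies at chr1:72824480-72852474 and has a single probe set. It read 4.39 and 4.43 in MT4m, against 6.53 and 6.19 in LM4m, and 5.07 and 4.52 in MT8m, against 6.19 and 7.08 in LM8m. No MT array reached the lowest LM array, and the highest MT value was again that of the library labelled MT8m replicate 1. The group means were 4.41 ± 0.03 in MT4m and 6.36 ± 0.24 in LM4m, and 4.79 ± 0.39 in MT8m and 6.64 ± 0.63 in LM8m (SD, n = 2 each). Averaged over ages it fell 3.73-fold in MT, a difference of -1.90 ± 0.21 with a 95% interval of -2.37 to -1.43 and an adjusted p of 0.0233. Without the library labelled MT8m replicate 1 the fall was -2.04 ± 0.22 with an adjusted p of 0.0166. The call was lost when MT4m replicate 1, MT4m replicate 2, LM4m replicate 1, LM4m replicate 2 or MT8m replicate 2 was left out, with adjusted p-values up to 0.205. The difference itself stayed between -2.12 and -1.68 in the 8 fits that each left out 1 array.

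In the fit over all 8 arrays, the test at each age called none of the members. Of all probe sets, 0% passed at 4 months and 0.02% at 8 months. Igfbp2 differed by -1.95 ± 0.29 at 4 months, with an adjusted p of 0.314, and by -1.84 ± 0.29 at 8 months, with an adjusted p of 0.265. A fit of the 4 arrays of 4 months by themselves called Igfbp2, with an adjusted p of 0.0369, and the like fit at 8 months did not, with an adjusted p of 1. The share of all probe sets that these fits called is not given here, so the call has no background beside it. The difference between the ages was 0.11 with a 95% interval of -0.83 to 1.05. Once the library labelled MT8m replicate 1 was left out, Igfbp2 differed by -2.12 ± 0.34 at 8 months, with an adjusted p of 0.0869, and the difference between ages turned to -0.17 ± 0.43. The plot of genotype differences shows Igf2 and Igfbp2 as the members whose intervals lie farthest below 0 at both ages.

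**Figure D3:**
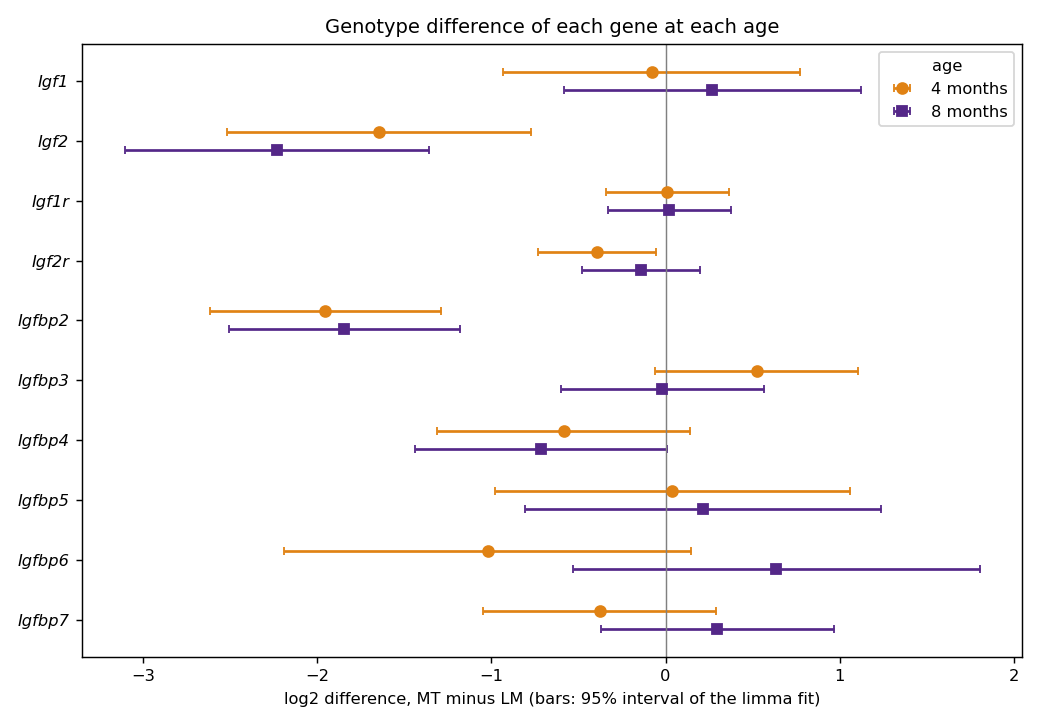
Genotype difference, MT minus LM, in log2 units (horizontal axis) of each of the 10 genes (vertical axis) at 4 months (circles) and 8 months (squares); bars are 95% intervals of the limma fit over all 8 arrays. Igf2 stands at -1.65 and -2.23 and Igfbp2 at -1.95 and -1.84, while the intervals of Igf1, Igf1r, Igfbp3, Igfbp4, Igfbp5, Igfbp6 and Igfbp7 include 0 at both ages.

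In each of the 4 groups, the array with more Igf2 also had more Igfbp2. Their Pearson correlation over the 8 arrays was 0.98, and each was the gene most like the other among 9096 genes above the median, a description in which the points share the genotype step. The genes next most like Igf2 were Ppp1r1b (0.97), Pcolce (0.96) and Slc22a5 (0.96). Those next most like Igfbp2 were Ecrg4 (0.98), Kcnj13 (0.98) and Calml4 (0.97), all on the choroid plexus list. The mean deviation of the choroid plexus list was -0.94 and -0.96 in MT4m, against 0.64 and 0.88 in LM4m, and -1.0 and -1.08 in MT8m, against 0.73 and 1.73 in LM8m. The meningeal list stood at -0.25 and -0.52 in MT4m, against 1.07 and -0.46 in LM4m, and at -0.32 and -0.24 in MT8m, against -0.28 and 0.99 in LM8m. LM8m replicate 2 held the highest value of Igf2, of Igfbp2 and of the choroid plexus list. Within LM8m and MT8m the choroid plexus list was higher in the same array as both genes. Within LM4m and MT4m it was higher in the other array, and in LM4m both genes were higher in replicate 1. The meningeal list went with both genes within LM4m and LM8m and against them within MT4m and MT8m. The part of these lists in the Igf2 and Igfbp2 values was not tested.

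**Figure D4:**
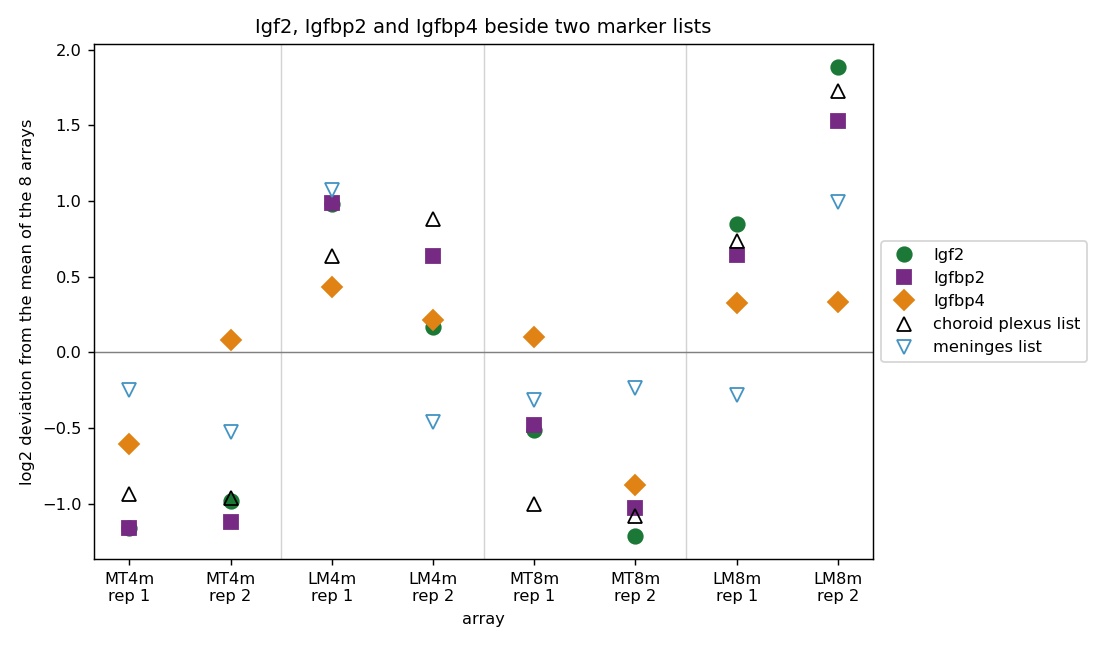
Log2 deviation from the mean of the 8 arrays (vertical axis) of Igf2, Igfbp2 and Igfbp4 (filled symbols) and of the means over 18 choroid plexus and 16 meningeal markers (open triangles), on each array (horizontal axis). Igf2, Igfbp2 and the choroid plexus list are below 0 on all MT arrays and above 0 on all LM arrays, reaching 1.88, 1.53 and 1.73 in LM8m replicate 2.

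Igfbp4, which holds ligand until it is cut by the protease Pappa, read 6.12 and 6.81 in MT4m, against 7.16 and 6.94 in LM4m, and 6.83 and 5.85 in MT8m, against 7.05 and 7.06 in LM8m. All MT arrays were below all LM arrays, but MT4m replicate 2 and the library labelled MT8m replicate 1 came nearest to the lowest LM array, 6.94. The averaged difference was -0.65 ± 0.22, a level 1.57-fold lower in MT, with an adjusted p of 0.836. Without the library labelled MT8m replicate 1 it was -0.89 ± 0.17 with an adjusted p of 0.157. The probe sets 1437406_x_at, 1423756_s_at and 1423757_x_at followed it over the 8 arrays with correlations of 0.97, 0.94 and 0.92 and differed by -0.36, -0.71 and -0.40. Their genotypes overlapped, as did those of every Igfbp4 probe set other than the one that stands for the gene. In 1423757_x_at the library labelled MT8m replicate 1, at 4.90, was above 3 of the 4 LM arrays. The endings _x_at and _s_at of these names mark probes that can match transcripts of other genes, so their values are less certain. The ending of 1423756_s_at is shared by 1452114_s_at, which stands for Igfbp5, and by the second Igfbp3 probe set, 1458268_s_at. The remaining Igfbp4 pair, 1421991_a_at and 1421992_a_at, varied by no more than 0.59 over the 8 arrays. They went opposite ways, with averaged differences of 0.18 ± 0.12 and -0.20 ± 0.11. Their correlations with the probe set that stands for Igfbp4 were -0.10 and 0.60. The genes most like Igfbp4 over the 8 arrays were Dele1 (0.97), Sf3b5 (0.96), Hmgxb4 (0.96) and Eci1 (0.95), none of them on a marker list used here.

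Igfbp3, the main carrier of the ligands in blood, read 5.05 and 4.62 in MT4m, against 4.48 and 4.13 in LM4m, and 3.93 and 4.58 in MT8m, against 4.47 and 4.08 in LM8m. At 4 months both MT arrays were above both LM arrays. At 8 months MT8m replicate 2 was above both LM8m arrays, and the library labelled MT8m replicate 1 was below them. The averaged difference was 0.25 ± 0.18, and at 4 months it was 0.52 ± 0.26 with an adjusted p of 0.944. Without the library labelled MT8m replicate 1 the averaged difference was 0.41 ± 0.17, with an adjusted p of 0.59. The second Igfbp3 probe set read 4.40 and 4.16 in MT4m, against 3.77 and 4.04 in LM4m, and 3.83 and 3.90 in MT8m, against 3.67 and 3.71 in LM8m. It was higher in MT than in LM within each age, with an averaged difference of 0.27 ± 0.10 and an adjusted p of 0.853.

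Igfbp5, which binds both ligands and the extracellular matrix, lies beside Igfbp2 on chromosome 1. It read 8.29 and 8.29 in MT4m, against 8.61 and 7.88 in LM4m, and 7.49 and 9.09 in MT8m, against 8.16 and 7.99 in LM8m. The highest and the lowest of the 8 values were the 2 arrays of MT8m, the lowest being the library labelled MT8m replicate 1. The averaged difference was 0.13 ± 0.32 with all arrays and 0.53 ± 0.18 without that library, with adjusted p-values of 0.971 and 0.501. The second Igfbp5 probe set varied by 0.58 over the 8 arrays and correlated with the first at -0.45. Igf1 and Igfbp5 correlated at 0.86 over the 8 arrays.

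Igfbp6, another binding protein that prefers Igf2, was the member whose averaged difference depended most on a single library. It read 4.14 and 3.68 in MT4m, against 5.01 and 4.86 in LM4m, and 6.01 and 4.05 in MT8m, against 4.23 and 4.55 in LM8m. With 6.01, the library labelled MT8m replicate 1 was the highest of the 8 arrays, and the other 3 MT arrays were below all LM arrays. At 4 months the difference was -1.02 ± 0.51, and at 8 months it was 0.64 ± 0.51, or -0.34 without that library. The test of the difference between ages gave 1.66 ± 0.72 with an unadjusted p of 0.049 and an adjusted p of 1, and 0.68 without that library. Averaged over ages the difference was -0.19 ± 0.36 with all arrays and -0.68 ± 0.15, with an adjusted p of 0.234, without it. In that library the meningeal list stood at -0.32 and the endothelial list at 0.17, and their part was not tested. For the difference between ages, 0 of the 10 members and 0% of all probe sets passed.

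Igfbp7, a protein of blood vessel walls that binds the ligands only weakly, was the member with the largest difference between ages. It read 6.10 and 6.60 in MT8m, against 4.90 and 5.84 in MT4m, and 5.89 and 6.22 in LM8m, against 5.76 and 5.74 in LM4m. Within each genotype both arrays of 8 months were above both of 4 months. The difference, 8 minus 4 months averaged over genotypes, was 0.64 ± 0.21 with a 95% interval of 0.17 to 1.12, an unadjusted p of 0.0137 and an adjusted p of 0.668. It was 0.98 ± 0.29 in MT and 0.30 ± 0.29 in LM, and the test of the difference between these gave 0.68 with a 95% interval of -0.27 to 1.62. Leaving out MT4m replicate 1, the lowest array, brought the age difference to 0.41, and leaving out the library labelled MT8m replicate 1 brought it to 0.77 ± 0.22, with an adjusted p of 0.512. The other Igfbp7 probe sets did not follow: the age difference was 0.07 ± 0.14 in 1437804_at and -0.23 ± 0.10 in the dim 1423585_at, and they correlated with the first at 0.25 and -0.24. The endothelial list stood at 0.17 and 0.17 in MT8m, against -0.20 and 0.11 in MT4m, and at -0.01 and -0.12 in LM8m, against 0.01 and -0.12 in LM4m. The list of mural cells, which wrap the vessels, stood at 0.01 and 0.04 in MT8m, against -0.44 and -0.07 in MT4m, and at 0.14 and 0.15 in LM8m, against 0.33 and -0.16 in LM4m. The part of these lists was not tested.

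None of the members passed the test of age, and 0% of all probe sets passed it. At an unadjusted p under 0.05, 1 of 10 members passed, against 6.48% of all probe sets. The other members differed by -0.30 to 0.50 between 8 and 4 months, Igfbp3 being at the low end and Igf2 at the high end. Across the 4 groups together, the moderated F test called 0 of the 10 members, against 0.0133% of all probe sets. At an unadjusted p under 0.05 the F test took 3 members, Igf2, Igfbp2 and Igfbp7, against 4.89% of all probe sets. Beside these counts of 0, the unadjusted threshold took 3 members at 4 months, against 4.86% of all probe sets, and 2 at 8 months, against 3.39%.

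**Figure D5:**
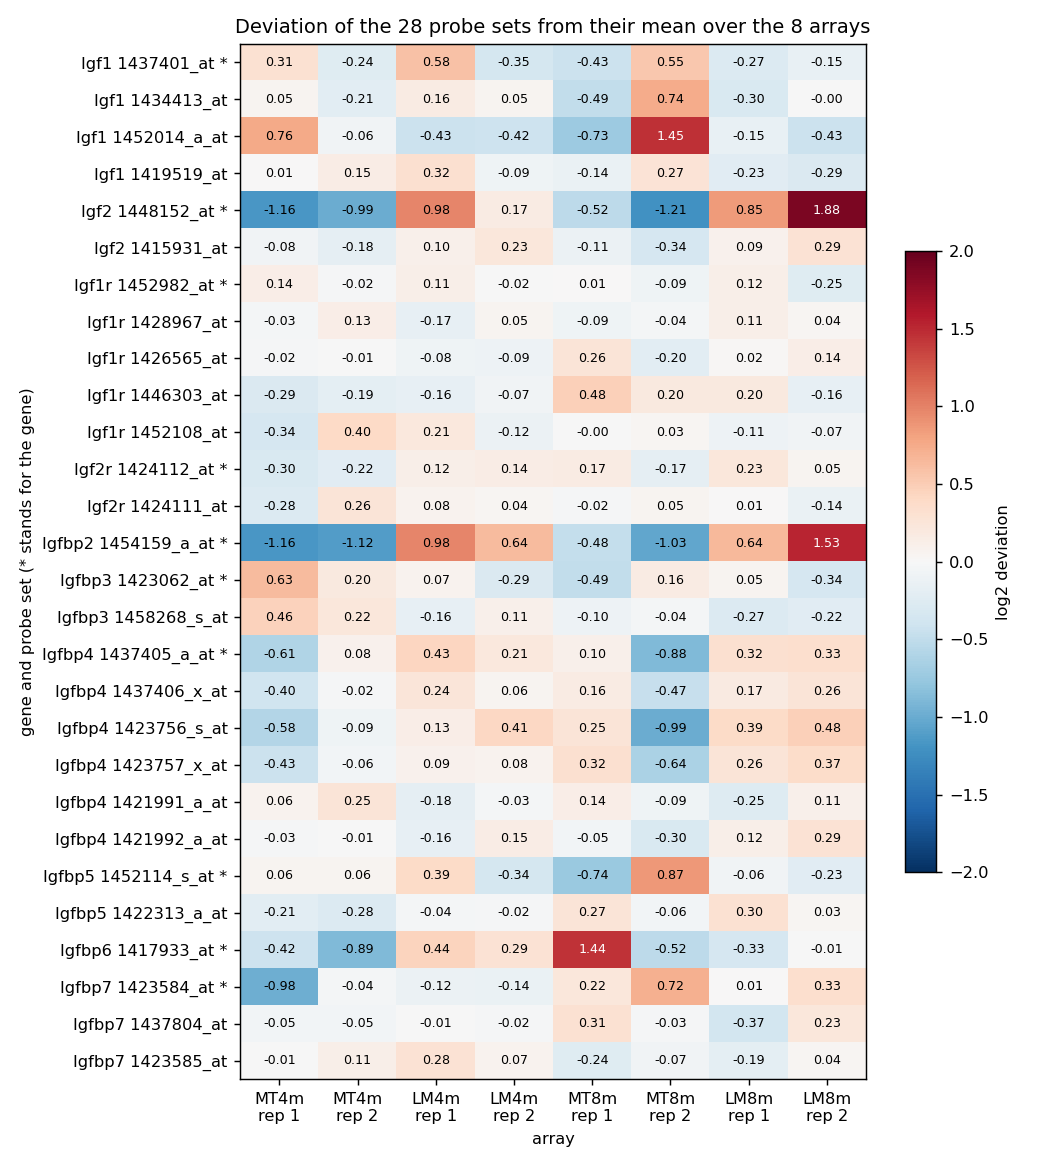
Log2 deviation from its own mean over the 8 arrays for each of the 28 probe sets (rows, the asterisk marking the one that stands for its gene) on each array (columns); red is above and blue below the mean, and each cell prints its value. Igf2 and Igfbp2 span -1.21 to 1.88 and -1.16 to 1.53 with a step between MT and LM, and Igfbp6 stands at 1.44 in MT8m replicate 1.

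No gene in the rest of the pathway passed the averaged test, with or without the library labelled MT8m replicate 1. Of 7 measured genes among the insulin ligands, the insulin receptors and the remaining binding proteins, 0 passed averaged over ages. Ghr, the growth hormone receptor that drives Igf1 in liver, differed by -0.39 ± 0.14, or -0.26 ± 0.12 without that library. Igfbpl1, a binding protein-like gene, differed by -0.35 ± 0.10 with all MT arrays below all LM arrays, as in 1.81% of all probe sets. Its mean of 2.52 was only just above the median of 2.47, and both MT8m arrays held the same value, 2.27. Ins2, the insulin gene next to Igf2, differed by -0.17 ± 0.12, and Igfals, the stabiliser of the ligand complex in blood, by -0.15 ± 0.12. Of 6 genes for proteases that cut the binding proteins and their inhibitors, 0 passed and 1, Htra1, was above the median of all probe sets, at 8.98 to 9.21 in MT and 8.95 to 9.16 in LM. The largest differences among the others were 0.13 for Stc1 and -0.11 for Adam12. The proteins that bind Igf2 messenger RNA, Igf2bp1 and Igf2bp3, differed by 0.21 ± 0.18 and 0.05 ± 0.09. The probe sets of Ghr, Ins2 and Igf2bp1 end in _s_at or _x_at, so their values are less certain, as said for Igfbp4.

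Downstream of the receptors, 23 signalling genes were measured and 0 passed. At an unadjusted p under 0.05, 3 of them passed, against 5.76% of all probe sets. Their median difference was -0.04, against -0.01 over all named genes. Irs1, the adaptor that carries the signal from Igf1r, read 6.24 and 6.15 in MT4m, against 6.72 and 6.48 in LM4m, and 6.04 and 5.82 in MT8m, against 6.31 and 6.27 in LM8m. All 4 of its MT arrays were below all 4 LM arrays, the averaged difference was -0.38 ± 0.10 and the adjusted p was 0.716, or -0.44 ± 0.11 and 0.293 without that library. The kinase Akt2 likewise had all MT arrays below all LM arrays, with a difference of -0.39 ± 0.13 and an adjusted p of 0.816, or -0.52 ± 0.11 and 0.179 without that library. Akt1 differed by -0.35 ± 0.16, and Tsc2, a brake on the growth kinase Mtor, by 0.30 ± 0.12 with an adjusted p of 0.853.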

How the data were processed

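The authors normalised the arrays by RMA in R (package affy, whose version is not stated in what was used here), and the deposited table holds log2 values of 45101 probe sets, including 64 Affymetrix controls that were not tested. No depth applies to arrays, and their number limits the precision. The probe annotation gave 1 symbol for 34945 of the 45037 tested probe sets, several for 932 and none for 9160. RefSeq (GRCm38.p6) held 34741 of those with 1 symbol and supplied loci and promoter windows, which were found for all 10 members.

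Group means were fitted with limma 3.58.1 in R 4.3.3 (lmFit and eBayes) over all 8 arrays, with two-sided p-values adjusted by Benjamini-Hochberg over the 45037 probe sets and a threshold of 0.05. The script was tested on simulated data. All 10 members are named, with up to 4 genes of each pathway list by size of the averaged genotype difference, and, for members whose genotypes separate, the 4 genes most correlated over the arrays. The members and lists were chosen with earlier results of these data known. Alternatives were 1 probe set per gene, probe sets above the median only, an eBayes prior with trend and robust settings, cyclic loess, each age alone, an additive model, the title number as a block, and leaving out each array. No column of the table was left unused.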

Additional observations from a re-analysis of the deposited data

How the results depend on the processing

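With 2 arrays a group, and 1 of them against its label by Thy1, calls rest on few values. Averaged over ages, 1 member passed in the main analysis, 2 (Igf2 and Igfbp2) among probe sets above the median or with 1 probe set per gene, 4 at an unadjusted p, and 0 to 2 when each array was left out in turn. At 4 months the count was 0, and 1 (Igfbp2) with the arrays of that age alone. At 8 months it was 0, and 1 (Igfbp2) with a trended and robust prior and 0 to 1 with an array left out. The F test took 0, then 1 with that prior, 3 at an unadjusted p and 0 to 1 with an array left out. Age and the difference between ages stayed at 0 members in all fits run. No direction of a called member reversed. The share of all probe sets called is not given here for the fits of each age alone or with the trended and robust prior. Over the alternatives that kept all arrays, the adjusted p of Igfbp2 ran from 0.00146 to 0.0281 and that of Igf2 from 0.0427 to 0.108. Over all probe sets, the count for the averaged genotype difference was 27 with all arrays, 142 without MT8m replicate 1, 54 without LM8m replicate 1, 28 without LM8m replicate 2, and 5 to 11 without any other array.

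Arrays of the same genotype share a title number across ages, and their deviations correlated at -0.17 in MT and 0.24 in LM. Each genotype gives a single such comparison, and that in MT includes the library that goes against its label by Thy1. These values therefore cannot decide whether the number pairs the arrays. With the title number as a replicate block, 0 members and 0 probe sets passed for age and for the difference between ages. With the MT numbers crossed, a pairing chosen after seeing the data, 0 members passed, and 3 probe sets for age and 1 for the difference between ages.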

Other observations

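Genes next to the members on the genome, and antisense genes at their loci, were read as values outside the comparisons. Igf1os, an antisense transcript at Igf1, was dim, at 2.09 and 1.84 in MT4m, against 1.65 and 1.58 in LM4m, and 2.07 and 2.00 in MT8m, against 1.83 and 1.87 in LM8m. Its MT arrays were above its LM arrays within each age, and the averaged difference of 0.27 ± 0.09 had an adjusted p of 0.836 in limma. At the Igf2 locus, Igf2os differed by 0.05 ± 0.11 and Th by -0.13, and both were dim. Igfbp5 and Tnp1, beside Igfbp2, differed by 0.13 and -0.11, or by 0.53 and -0.25 without the library labelled MT8m replicate 1. Beside Igf2r, Mas1 differed by 0.29 ± 0.11, Slc22a2 by -0.27 ± 0.15 and Airn by -0.03, and none of these passed.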
